A study of Mus musculus with 18 samples.

Results

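The myosin light chains and the skeletal muscle light chain kinase were followed as 9 genes chosen by name, of 47311 genes in the deposited tables: the essential light chains Myl1, Myl3, Myl4, Myl6 and Myl6b, the regulatory light chains Myl2, Mylpf and Myl9, and the kinase gene Mylk2. They were measured by polyA RNA sequencing in C2C12 cells, an established mouse skeletal muscle line whose mononuclear myoblasts stop dividing and fuse into myotubes when differentiated. The 6 groups were myotubes with Setd2 siRNA 1, with Setd2 siRNA 2 or with a control siRNA, and undifferentiated myoblasts with the same 3 siRNAs. There were 18 libraries, 3 biological replicates per group by their labels. Setd2 encodes the enzyme that trimethylates lysine 36 of histone H3, and the series asks how its depletion changes gene expression before and after differentiation. Cells of every group, controls included, were stretched before lysis and no unstretched cells were used here, so each value describes stretched cells of 1 line. Whether the replicates were separate cultures is not stated, so p values may measure only technical spread.

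Each myosin heavy chain carries an essential and a regulatory light chain wrapped around the lever arm behind its motor head. Fast, slow, cardiac, embryonic, smooth and non-muscle myosins use different light chain genes, and muscle cells exchange non-muscle for sarcomeric forms as they differentiate. Calcium and calmodulin switch on light chain kinases, which phosphorylate the regulatory chain; in skeletal muscle the kinase is the product of Mylk2, and the phosphate raises force at low calcium. Myl1 makes its pair of fast essential chains from separate promoters, the downstream one lying inside the upstream transcription unit: the longer chain, known as MLC1F, has an amino-terminal extension rich in alanine and proline that the shorter chain, MLC3F, lacks.

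The results turn on these alternative starts of Myl1 (ENSMUSG00000061816, mm10, minus strand, chr1:66924295-66945404). Transcript Myl1-201 begins at the upstream start, with a first exon at chr1:66944792-66945143, and Myl1-202 begins 9789 bases downstream, with a first exon at chr1:66935276-66935354. Each has 7 exons, and the 4 exons of 144, 174, 78 and 43 bases in the middle are the same in both. The coding start of each transcript is printed below, 5′ to 3′ on the transcript strand, from the GENCODE M21 transcript sequences, since it is what tells the isoforms apart. Capitals mark coding bases that only that transcript carries, 142 in Myl1-201 and 28 in Myl1-202, and lower case marks the first 12 bases of the exon where they join.
Myl1-201: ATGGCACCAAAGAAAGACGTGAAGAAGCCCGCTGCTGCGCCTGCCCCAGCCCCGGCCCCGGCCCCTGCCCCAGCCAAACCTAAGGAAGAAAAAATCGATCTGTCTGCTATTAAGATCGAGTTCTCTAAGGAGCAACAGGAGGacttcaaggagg
Myl1-202: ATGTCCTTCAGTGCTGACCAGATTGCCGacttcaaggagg

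The 2 light chain genes with the highest myotube levels, Mylpf and Myl1, each hold an E-box of the sequence CAGCTG, a word bound by myogenic factors of the MyoD family, in the RefSeq promoter window (GRCm38.p6; 250 bases before to 50 after each start). The stretches shown are the 250 bases before the Mylpf start at chr7:127211358-127211607, plus strand, and 147 bases before the start of Myl1-201 at chr1:66945144-66945290, minus strand. Another upstream-start transcript, Myl1-206, begins further upstream, at chr1:66945384, so the Myl1 stretch lies within its span. Capitals mark the E-box.
Mylpf: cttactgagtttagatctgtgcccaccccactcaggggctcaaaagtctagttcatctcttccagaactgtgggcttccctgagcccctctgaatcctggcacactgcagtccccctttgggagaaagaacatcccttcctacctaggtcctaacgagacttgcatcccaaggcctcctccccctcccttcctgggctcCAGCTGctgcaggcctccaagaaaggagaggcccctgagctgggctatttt
Myl1: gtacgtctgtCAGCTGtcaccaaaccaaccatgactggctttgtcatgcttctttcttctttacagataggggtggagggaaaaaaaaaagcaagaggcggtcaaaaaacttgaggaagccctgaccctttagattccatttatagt
The word reads the same on both strands. It occurs in 4 of the 10 windows listed for 8 of the genes (Myl1, Mylpf and both windows of Myl2), and in 16.3% of all 32851 RefSeq windows of 300 bases. The Myl2 windows lie 7762 and 8227 bases from the nearest annotated GENCODE start, and the Myl4 window belongs to a start whose transcript, Myl4-201, held under 0.1% of Myl4 counts in myotubes, so neither was used further. No binding was measured, and a match is a description of the letters in this window.

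The libraries held 43.5 to 66.6 megareads of estimated counts. Setd2 was at 34.4 to 58.8 CPM (counts per megaread, scaled between all 18 libraries) in the depleted libraries and at 97.7 to 118 CPM in the controls, with no overlap. Summed skeletal myotube markers (Myog, Ckm, Acta1, Myh3, Tnnt3 and Atp2a1) stood at 14142 to 18713 CPM in myotubes and at 32.1 to 136 CPM in myoblasts. Of the defining markers of other cell types, Thy1, Nppa, Ryr2 and Myl7 averaged under 0.1 CPM in every group and Myh11 and Lum under 0.4 CPM. The others were detected: group means lay at 66.4 to 89.5 CPM in myotubes and 22.5 to 30.8 CPM in myoblasts for Tagln, at 194 to 221 and 60.8 to 150.1 CPM for Col1a1, at 84.5 to 125 and 3.30 to 4.78 CPM for Dcn and at 8.53 to 10.6 and up to 8.82 CPM for Pdgfra. Myh6 was at 77.6 to 83.7 CPM in myotubes and under 0.2 CPM in myoblasts, Tnni3 at 1.43 to 3.71 and under 0.4 CPM, and Acta2 and Col3a1, which skeletal muscle cells in culture also make, were high in all groups. Library names carry a prefix of unknown meaning, C13 or D1 in myotubes and C14 or D2 in myoblasts, which is uneven across the groups. Values within a prefix are given for some results only, so the others may also move with it. Each group held 1 or 2 libraries of a prefix, so a difference within a prefix rests on few libraries. RNA from bulk cells cannot tell fewer cells of a type from less RNA per cell.

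Myl6 was the leading light chain message of myoblasts, and Mylpf, Myl1 and Myl4 led in myotubes. In control myotubes the 9 genes together made up 1.86% ± 0.03 of library TPM (length-corrected abundance, per megatranscript), against 0.183% ± 0.004 in control myoblasts (SD, n = 3 each). By TPM, which allows genes to be compared, the order of levels in control myotubes was Mylpf at 8854, Myl1 at 5093, Myl4 at 2591, Myl6 at 1150, Myl6b at 717, Myl9 at 93.0, Myl2 at 90.1, Mylk2 at 28.8 and Myl3 at 0.997 TPM (means of 3 libraries). In this order only Myl9 and Myl2 overlapped. Mylpf ranked 8th or 9th of all genes in every control myotube library, and Myl1 13th to 16th. In control myoblasts Myl6, the essential chain of non-muscle and smooth muscle myosin, came first at 1681 TPM. It made up 98.2% ± 0.5 of essential light chain TPM. Of the 9 genes, Myl9, a regulatory chain of these myosins, followed at 88.4 TPM. Outside the 9, the non-muscle regulatory chains Myl12a and Myl12b stood above Myl9, at 1041 and 186 TPM in control myoblasts. Mylpf, Myl6b, Myl1, Mylk2 and Myl4 lay between 2.5 and 25 TPM there, with Myl1 overlapping both Myl6b and Mylpf, and Myl2 and Myl3 had no count in any control myoblast library.

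**Figure D1:**
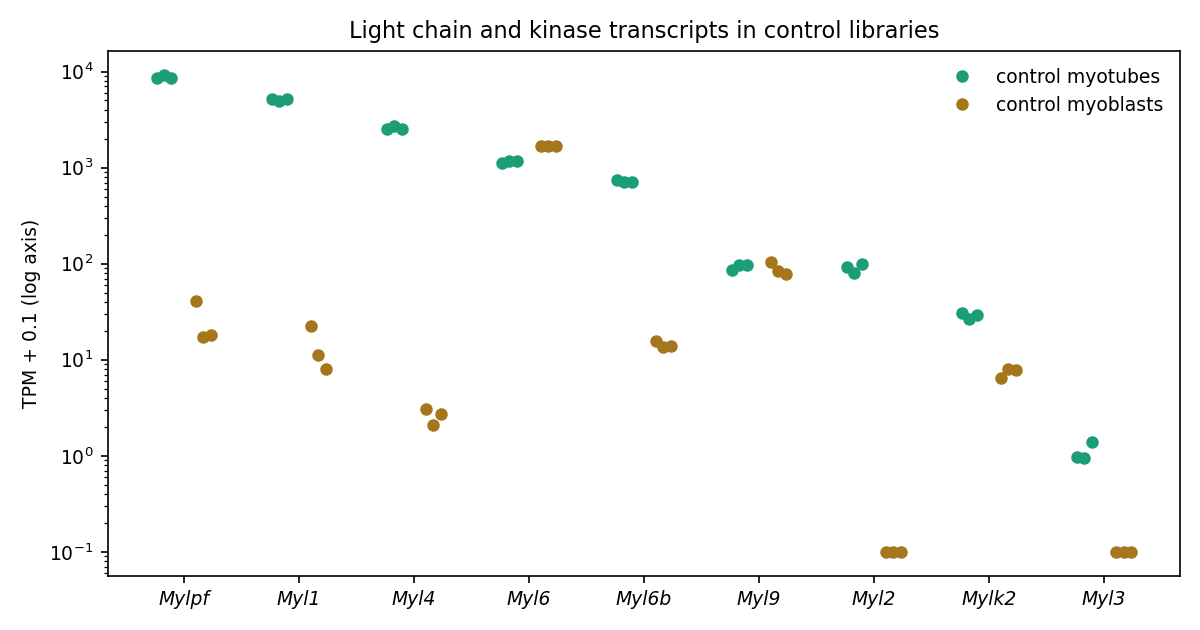
TPM + 0.1 (log axis) of the 9 genes in each of the 3 control myotube libraries (green, left of each pair) and the 3 control myoblast libraries (brown, right). Mylpf, Myl1 and Myl4 lead in myotubes, Myl6 leads in myoblasts, and Myl9 sits near the same level in both.

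Between control myotubes and control myoblasts, 8 of the 9 genes passed the test, 7 higher and 1 lower in myotubes; of all 16930 genes tested, 39.4% passed higher and 38.1% lower. A call is thus common in this comparison. The 7 include Myl2 and Myl3, which had no count in control myoblasts and could pass the filter only through the myotubes. Myl4, an essential chain of embryonic skeletal and atrial muscle, was at 1008, 1089 and 1002 CPM in control myotubes and at 1.23, 0.880 and 0.900 CPM in control myoblasts, a log2 fold change of 9.998 ± 0.16 (SE; adjusted p = 4.17e-17). Mylpf, the fast regulatory chain, was at 2691, 2938 and 2668 CPM in control myotubes against 12.9, 5.35 and 5.38 CPM in control myoblasts (log2 fold change 8.44 ± 0.47, adjusted p = 1.19e-09). Myl1 rose by a log2 fold change of 8.53 ± 0.40 (adjusted p = 1.84e-10). Its myoblast levels, like those of Mylpf, were highest in the library of prefix C14, and since no prefix occurs in both stages, stage and prefix cannot be told apart.

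Myl6b, an essential chain of slow skeletal and non-muscle myosin, averaged 329 ± 10.3 CPM in control myotubes and 6.58 ± 0.53 CPM in control myoblasts (SD, n = 3 each; log2 fold change 5.64 ± 0.09 SE, adjusted p = 4.74e-19). Mylk2 was at 46.4, 39.8 and 43.2 CPM in control myotubes and 9.61, 12.1 and 11.8 CPM in control myoblasts, a smaller rise of 1.95 ± 0.11 on the log2 scale (adjusted p = 4.32e-11). Among the genes called higher that had counts in both stages, this was the smallest change. Myl2, the slow skeletal and ventricular regulatory chain, had 3735 counts over the 3 control myotube libraries and 0 over the 3 control myoblast libraries, at least 1335-fold higher in control myotubes when the myoblasts are set at a floor of 3 counts over the group. Myl3, its essential counterpart, had 55 counts in control myotubes and 0 in control myoblasts, at least 19.7-fold higher. Both could pass the filter on low counts only through the myotubes, so that they were called is no support. Myl6 fell, with 292, 310 and 307 CPM in control myotubes against 451, 446 and 439 CPM in control myoblasts (log2 fold change -0.56 ± 0.03, adjusted p = 3.74e-12). Myl9 did not pass, at 42.6 ± 2.31 CPM in control myotubes and 41.0 ± 6.2 CPM in control myoblasts (log2 fold change 0.06 ± 0.11, adjusted p = 0.661).

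With Setd2 depleted, downstream-start transcripts held a larger share of Myl1 estimated counts in myotubes with either siRNA. Downstream-start transcripts (Myl1-202, Myl1-203, Myl1-204 and 1 minor transcript) held 59.1%, 63.5% and 62.7% of the estimated counts of both start classes with siRNA 1 and 61.2%, 62.0% and 62.5% with siRNA 2, against 48.2%, 49.7% and 50.3% with the control siRNA. No depleted library overlapped a control. The mean difference from control was 12.4 percentage points with siRNA 1 and 12.5 with siRNA 2, each with p = 0.1 in an exact two-sided permutation test over 3 against 3 libraries, the smallest p this design allows. The difference had the same direction within each library prefix, at 9.84 points in C13 and 13.4 in D1 with siRNA 1 and at 11.9 and 12.5 points with siRNA 2. C13 held 1 library of each siRNA and 2 controls, and D1 held 2 of each siRNA and 1 control. The C13 library of siRNA 1 had Setd2 at 58.8 CPM, against 38.9 and 39.1 CPM in the D1 libraries of siRNA 1. The part of this in the smaller C13 value was not tested. The siRNAs did not separate from each other: siRNA 2 minus siRNA 1 was 0.118 points, with overlapping libraries and p = 1.0 in the exact permutation test.

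On the TPM scale the start classes lay on opposite sides of their controls. Downstream-start TPM lay at 3790 to 4128 with siRNA 1 and 4178 to 4350 with siRNA 2, against 2748 to 2912 in controls. Upstream-start TPM lay at 1725 to 1876 with siRNA 1 and 1927 to 1936 with siRNA 2, against 1946 to 2125 in controls. Neither range of depleted libraries reached the control range, although the upstream gap was narrow for siRNA 2. That gap was seen in TPM only. With the scaling used for CPM, upstream-start counts with siRNA 2 overlapped those of the controls. In a fit of all transcripts, Myl1-202 rose by 0.63 ± 0.05 on the log2 scale with siRNA 1 (SE, adjusted p = 0.00321) and by 0.79 ± 0.05 with siRNA 2 (adjusted p = 0.000414), and Myl1-204, a further downstream-start transcript, by 0.41 ± 0.04 and 0.53 ± 0.04 (adjusted p = 0.00458 and 0.000502). Of the other transcripts, the downstream-start Myl1-203 did not pass (0.12 ± 0.08 and 0.05 ± 0.08, adjusted p = 0.598 and 0.855), and the upstream-start Myl1-206 averaged 453 TPM with siRNA 1 and 507 TPM with siRNA 2, against 400.1 TPM in controls. Myl1-206 rose with siRNA 2 (0.44 ± 0.06, adjusted p = 0.00346) and did not pass with siRNA 1 (0.23 ± 0.06, adjusted p = 0.0731). Myl1-201 did not pass, with -0.22 ± 0.06 for siRNA 1 (adjusted p = 0.0952) and -0.09 ± 0.06 for siRNA 2 (adjusted p = 0.475). Of all 44552 transcripts tested in myotubes, 2.69% passed with siRNA 1 and 6.42% with siRNA 2.

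A test of each transcript's share within its gene (edgeR's diffSpliceDGE, added after the counts had been seen) put Myl1-202 higher by 0.27 with siRNA 1 and by 0.28 with siRNA 2 relative to its gene (log2; adjusted p = 0.00377 and 0.00172). Myl1-201 was lower by the same test, at -0.32 and -0.33 (adjusted p = 0.000186 and 0.000121). Of 37379 transcripts whose share could be tested, 0.412% passed with siRNA 1 and 0.479% with siRNA 2. Both siRNAs are set against the same 3 control libraries, so the siRNA values are not independent of each other. The estimated counts of isoforms that share exons carry an assignment error that the tables do not state. Start use itself was not measured, and Myl1-204 is annotated as a processed transcript, not as protein coding.

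**Figure D2:**
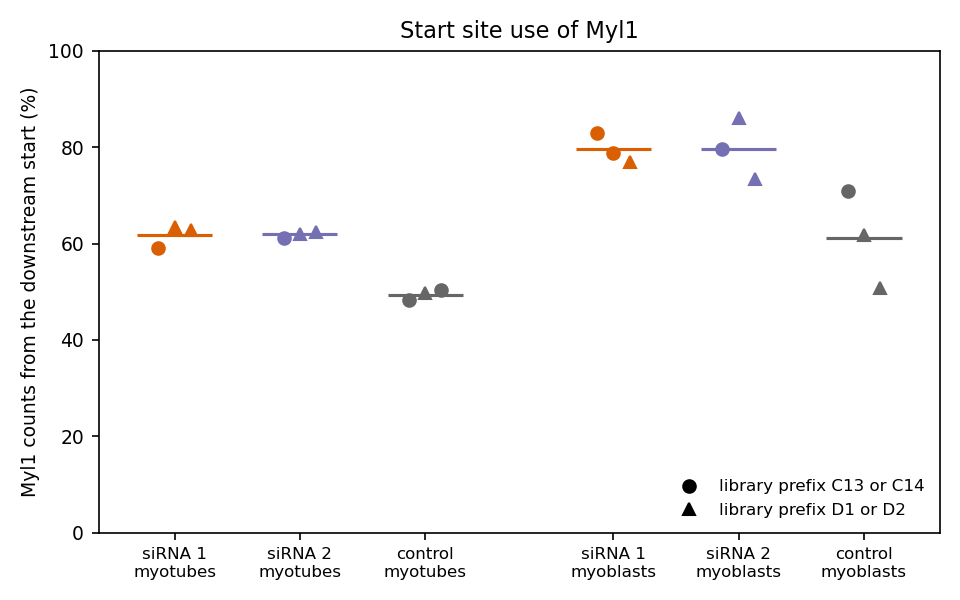
Share of Myl1 estimated counts from downstream-start transcripts (percent of both start classes) in each library, by group, with bars at group means and symbols for the library prefix. The 6 depleted myotube libraries lie at 59.1% to 63.5%, above the 3 controls at 48.2% to 50.3%, and the depleted myoblast libraries also lie above their controls.

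Myoblasts, in which Myl1 is near the bottom of its range, had the same direction with wider spread. The downstream share was 83.0%, 78.9% and 77.0% with siRNA 1 and 79.5%, 86.0% and 73.4% with siRNA 2, against 70.9%, 61.8% and 50.8% in controls, without overlap (exact permutation p = 0.1 each, the smallest possible). These shares rest on 81.7 to 532 downstream-start counts per library, against 37249 to 79616 in myotubes, and the difference within a prefix ran from 8.64 points (siRNA 2, C14) to 23.4 points (siRNA 2, D2). In shares of TPM the gap was narrow for siRNA 2, at 79.8% to 88.1% against 61.9% to 79.5% in controls. With siRNA 1 these TPM shares were 84.5% to 88.0%. No Myl1 transcript passed in the myoblast transcript fits. In control cells the share was 11.7 points lower in myotubes than in myoblasts, without overlap (exact permutation p = 0.1). The lowest myoblast control, at 50.8%, lay close to the highest myotube control, at 50.3%, and the difference was -6.88 points without myoblast control replicate 1 and -16.9 points without replicate 3. In the transcript fit of control myotubes against control myoblasts, where 45.0% of 49510 transcripts passed, all 5 Myl1 transcripts with at least 5% of the gene's counts in a group rose, and none changed its share by the share test, in which Myl1-202 stood at -0.33 (adjusted p = 0.466).

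At the level of whole genes, 5 of the 9 passed higher in myotubes with siRNA 1 and none lower, against 11.0% higher and 9.57% lower of 16097 genes tested. With siRNA 2, 4 passed higher and 2 lower, against 15.8% and 16.4% of all genes. Myl1, Myl6b and Mylk2 rose with both. The median log2 fold change over the 9 genes was 0.24 with siRNA 1 and 0.08 with siRNA 2, and over all genes 0.00 and -0.01. Summed skeletal myotube markers moved in the same direction, at 17086 to 17210 CPM with siRNA 1 and 16771 to 18713 CPM with siRNA 2 against 14142 to 15595 CPM in controls, with 3 of 6 markers called higher with siRNA 1 and 5 of 6 with siRNA 2. None was called lower, but Myog averaged 838 ± 101 CPM with siRNA 1 and 846 ± 29.7 CPM with siRNA 2, against 903 ± 28.7 CPM in controls (SD, n = 3 each). The part of these markers in the light chain changes was not tested.

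Among essential chains, total Myl1 was at 2002, 2077 and 2071 CPM with siRNA 1 and 2194, 2294 and 2280 CPM with siRNA 2, against 1815, 1683 and 1736 CPM in control myotubes. No depleted library overlapped a control. The log2 fold change was 0.24 ± 0.04 with siRNA 1 (adjusted p = 0.00184) and 0.37 ± 0.04 with siRNA 2 (adjusted p = 4.47e-05). Myl6b was at 469, 410 and 414 CPM with siRNA 1 and 393, 390 and 362 CPM with siRNA 2, against 340, 327 and 320 CPM in controls. It rose by 0.40 ± 0.06 (adjusted p = 0.00066) and by 0.21 ± 0.06 (adjusted p = 0.0139), the second call being lost on the TPM scale in limma (adjusted p = 0.161) and without control replicate 2 or 3 (adjusted p = 0.0504 and 0.0543).

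Myl4, the embryonic and atrial chain, was at 1175, 1207 and 1164 CPM with siRNA 1, above all 3 controls at 1008, 1089 and 1002 CPM, and at 933, 1024 and 996 CPM with siRNA 2, which overlapped the controls. The rise with siRNA 1 was 0.20 ± 0.04 on the log2 scale (adjusted p = 0.00674), and 0.14 in limma on TPM, where it did not pass (adjusted p = 0.0579). With siRNA 2 the value was -0.07 ± 0.04 (adjusted p = 0.242), and -0.16 in limma on TPM, which passed (adjusted p = 0.0254). Its counts sat in Myl4-202 and Myl4-203, whose shares averaged 75.3% and 18.1% with siRNA 1, 75.1% and 18.7% with siRNA 2 and 75.0% and 18.1% in controls, and no Myl4 transcript passed the share test in myotubes.

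Myl6 did not pass in edgeR, at 310 ± 7.36 CPM with siRNA 1, 290.5 ± 9.75 CPM with siRNA 2 and 303 ± 9.34 CPM in controls (SD, n = 3 each; log2 fold change 0.04 ± 0.04 and -0.06 ± 0.04 SE, adjusted p = 0.505 and 0.242). With siRNA 2 it was lower by limma on log2(TPM + 0.1) and passed there (-0.14, adjusted p = 0.0249). Only 1 of its 15 annotated transcripts, and 1 of the 2 of Myl6b, was used here, so alternative exons of Myl6 are not analysed here. Myl3 was close to the detection limit with 20, 19 and 28 counts with siRNA 1 and 23, 49 and 40 counts with siRNA 2, against 14, 19 and 22 counts in controls. With siRNA 2 it rose by 1.05 ± 0.28 on the log2 scale (adjusted p = 0.013), and the call was lost without control replicate 2 or siRNA 2 replicate 2 (adjusted p = 0.0607 and 0.0613). With siRNA 1 Myl3 did not pass (0.32 ± 0.30, adjusted p = 0.506). Within prefixes the Myl3 value with siRNA 2 was 0.36 in C13 and 1.51 in D1, each with 1 library on 1 side.

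**Figure D3:**
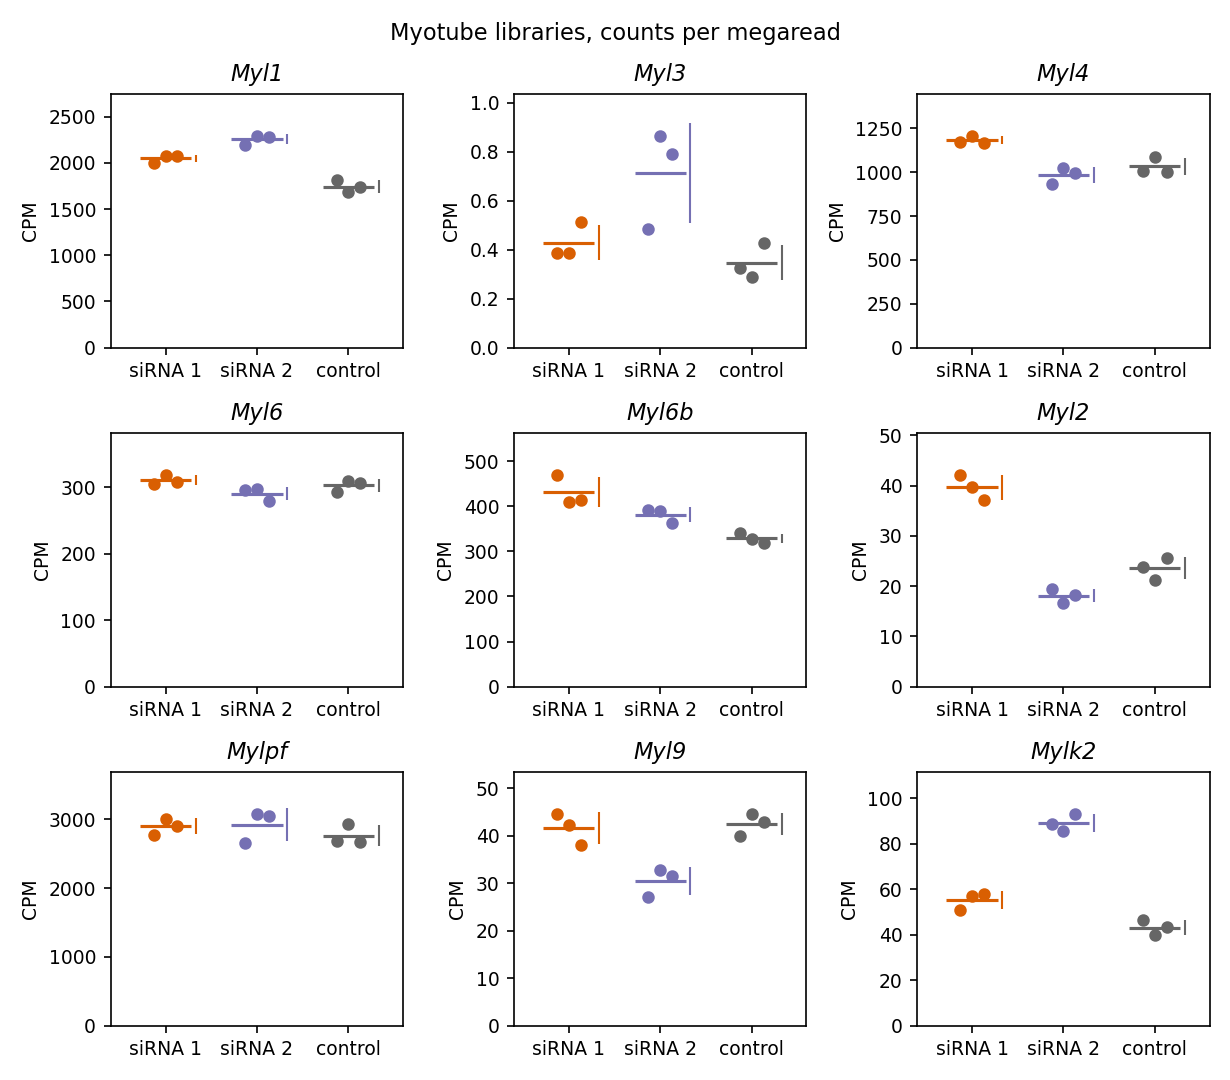
CPM of each gene in the 9 myotube libraries, with siRNA 1, siRNA 2 and control from left to right; points are libraries, horizontal bars group means and vertical bars 1 SD either side. Mylk2 is highest with siRNA 2, Myl2 is above controls with siRNA 1 and below them with siRNA 2, and Mylpf overlaps in all groups.

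Mylpf, the fast regulatory chain and the most abundant message of the set, did not pass with either siRNA. It was at 2779, 3014 and 2904 CPM with siRNA 1 and 2650, 3082 and 3046 CPM with siRNA 2, against 2691, 2938 and 2668 CPM in controls. All groups overlapped (log2 fold change 0.07 ± 0.06 and 0.08 ± 0.06, adjusted p = 0.422 and 0.325). Without siRNA 2 replicate 1, its lowest library, the siRNA 2 value was 0.14 and passed (adjusted p = 0.0407). Over the 5 essential and 3 regulatory chains of the set, the essential to regulatory TPM ratio was 1.19 ± 0.03 with siRNA 1 and 1.19 ± 0.07 with siRNA 2. It was 1.06 ± 0.05 in control myotubes (SD, n = 3 each). The depleted libraries, at 1.15 to 1.27, lay above the controls at 1.001 to 1.095. The ratio leaves out the non-muscle regulatory chains Myl12a and Myl12b, at 1710 and 236 TPM in control myotubes, so it does not cover all regulatory chains. Myl1 supplied 55.3% ± 0.9 of essential TPM with siRNA 1, 61.1% ± 0.6 with siRNA 2 and 53.3% ± 1.4 in controls.

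Myl2 moved in opposite directions with the siRNAs. It was at 42.1, 39.7 and 37.2 CPM with siRNA 1 and 19.4, 16.7 and 18.3 CPM with siRNA 2, against 23.9, 21.3 and 25.6 CPM in control myotubes. The 3 groups did not overlap. The log2 fold change was 0.76 ± 0.08 with siRNA 1 (adjusted p = 0.000143) and -0.38 ± 0.08 with siRNA 2 (adjusted p = 0.00534), and each direction was seen within both prefixes (0.77 and 0.86 with siRNA 1, -0.35 and -0.28 with siRNA 2 in C13 and D1). Each of these prefix comparisons has 1 library on 1 side. Cardiac muscle also makes Myl2. The summed level of cardiac muscle markers overlapped between the groups, at 86.2 to 90.0 CPM with siRNA 1, 77.4 to 90.2 CPM with siRNA 2 and 75.7 to 91.1 CPM in controls, and was nearly all Myh6. Within that list Tnni3, cardiac troponin I, rose with both siRNAs, to a mean of 3.13 CPM with siRNA 1 and 3.71 CPM with siRNA 2, against 1.43 CPM in controls (log2 fold change 1.12 and 1.35, adjusted p = 0.000617 and 6.8e-05). Its part in the Myl2 values was not tested.

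Myl9, the non-muscle and smooth muscle regulatory chain, fell with siRNA 2, at 27.1, 32.8 and 31.6 CPM against 40.1, 44.6 and 43.0 CPM in control myotubes (log2 fold change -0.48 ± 0.08, adjusted p = 0.000839). With siRNA 1 it was at 44.6, 42.2 and 38.0 CPM, overlapping the controls (-0.03 ± 0.08, adjusted p = 0.842). Within prefixes C13 and D1 the value was 0.10 and -0.15 with siRNA 1 and -0.62 and -0.47 with siRNA 2. The smooth muscle list held 2 markers called higher with both siRNAs, Lmod1 and Smtn, and 1 lower with both, Cnn1. Tagln, a smooth muscle actin-binding protein gene, was also called lower with siRNA 2, at 66.4 CPM against 89.5 CPM in controls (log2 fold change -0.43, adjusted p = 0.0288), and was at 70.1 CPM with siRNA 1 (-0.35, adjusted p = 0.0839). The summed level of the list was 1720 to 2177 CPM with siRNA 1, 1697 to 1747 CPM with siRNA 2 and 1808 to 1944 CPM in controls. The part of other cell types in the Myl9 values was not tested.

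Mylk2, the kinase gene, rose with both siRNAs and more with siRNA 2. Its message was at 50.8, 57.2 and 57.9 CPM with siRNA 1 and 88.7, 85.5 and 93.1 CPM with siRNA 2, against 46.4, 39.8 and 43.2 CPM in control myotubes. The 3 groups did not overlap. It was 1.29-fold control with siRNA 1 (log2 fold change 0.37 ± 0.06, adjusted p = 0.00237) and 2.07-fold control with siRNA 2 (1.05 ± 0.06, adjusted p = 1.54e-06). The siRNA 1 rise differed between prefixes, at 0.18 in C13 and 0.53 in D1, while that of siRNA 2 was 0.99 and 1.17. Each of these comparisons has 1 library on 1 side, and the only C13 library of siRNA 1 is the one with Setd2 at 58.8 CPM. By TPM the kinase was at 35.4 with siRNA 1, 55.7 with siRNA 2 and 28.8 in controls, so that with siRNA 2 its libraries overlapped those of Myl9 (62.9 TPM), and in controls they lay below Myl9 (93.0 TPM).

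**Figure D4:**
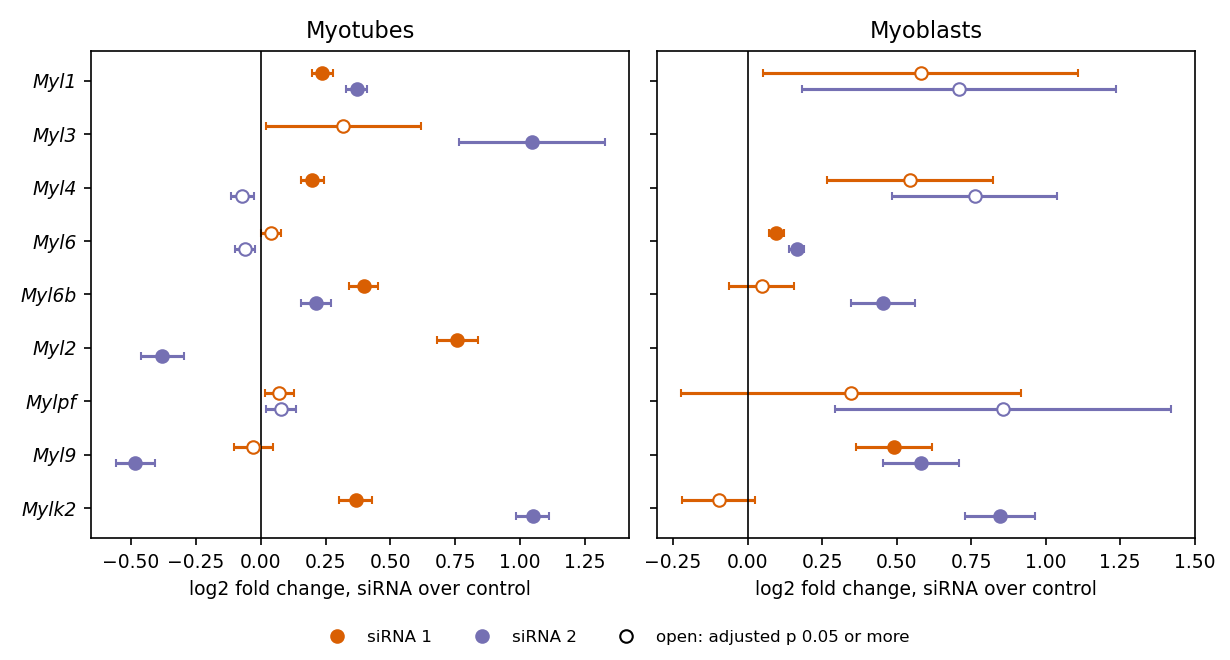
Log2 fold change of each siRNA over the control of its stage (edgeR) with bars of 1 SE either side, in myotubes (left) and myoblasts (right); filled points passed an adjusted p of 0.05. Myl2 and Myl3 were not tested in myoblasts. Mylk2 with siRNA 2 is high in both stages, and Myl9 is above 0 in myoblasts with either siRNA and not in myotubes.

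Set against each other directly in myotubes, siRNA 2 over siRNA 1, 2 genes were higher and 4 lower, where 7.76% and 9.36% of 16097 genes passed. Myl2 was lower with siRNA 2 than with siRNA 1, with a log2 difference of -1.14 ± 0.08 (adjusted p = 1.26e-05). Myl9 was lower too, at -0.45 ± 0.08 (adjusted p = 0.00251), as was Myl4, at -0.27 ± 0.04 (adjusted p = 0.00121). Mylk2 was higher with siRNA 2 by 0.68 ± 0.06 (adjusted p = 5.88e-05). The calls of Myl1 (0.13 ± 0.04, adjusted p = 0.0453) and Myl6b (-0.18 ± 0.06, adjusted p = 0.047) stood at the threshold, and each was lost on leaving out any of several single libraries. Myl1 did not pass without siRNA 1 replicate 1, 2 or 3 or without siRNA 2 replicate 2 or 3 (adjusted p = 0.0942 to 0.136), and Myl6b passed in only 2 of 9 such fits. The difference in Setd2 itself did not pass (-0.33 ± 0.17, adjusted p = 0.247).

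In myoblasts, where 7 of the 9 genes had enough counts to be tested, siRNA 1 gave 2 calls higher and 0 lower, against 11.6% and 8.44% of 15586 genes, and siRNA 2 gave 4 higher and 0 lower, against 17.1% and 16.5%. The non-muscle and smooth muscle chains Myl6 and Myl9 rose with both. Myl6 was at 468, 474 and 483 CPM with siRNA 1 and 507, 492 and 494 CPM with siRNA 2, against 451, 446 and 439 CPM in control myoblasts, a narrow but non-overlapping rise of 0.10 ± 0.03 (adjusted p = 0.0191) and 0.17 ± 0.03 (adjusted p = 0.000307) on the log2 scale. Myl9 was at 59.6, 61.1 and 51.7 CPM with siRNA 1 and 68.9, 57.2 and 57.2 CPM with siRNA 2, against 48.1, 37.9 and 36.8 CPM in controls (0.49 ± 0.13, adjusted p = 0.032, and 0.58 ± 0.13, adjusted p = 0.00954). Both siRNA 1 calls were lost without control replicate 2 or 3 or siRNA 1 replicate 2, with adjusted p from 0.0698 to 0.108, that of Myl6 also in limma on log2(TPM + 0.1) (adjusted p = 0.658) and that of Myl9 without a filter on low counts (adjusted p = 0.0937). Within prefixes C14 and D2, Myl9 was higher by 0.33 and 0.47 with siRNA 1 and by 0.52 and 0.61 with siRNA 2. Summed smooth muscle markers were at 425 to 443 CPM with siRNA 1 and 464 to 501 CPM with siRNA 2, against 341 to 388 CPM in controls, and ribosomal RNA-like sequence took 3.56% to 3.91%, 1.46% to 4.1% and 1.2% to 1.36% of counts in those groups. Of 4 fibroblast markers tested, 0 passed with siRNA 1 and 2 passed higher with siRNA 2, Col1a1 (1.31, adjusted p = 0.00648) and Col3a1 (0.43, adjusted p = 0.0246). Their list summed to 1197 to 1446 CPM with siRNA 1, which overlapped the controls, and 1489 to 1802 CPM with siRNA 2, against 1035 to 1294 CPM in controls. The part of these measures in the Myl6 and Myl9 values was not tested.

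Mylk2 and Myl6b rose in myoblasts with siRNA 2. The kinase was at 17.9, 21.0 and 21.3 CPM with siRNA 2 and 9.16, 9.98 and 12.2 CPM with siRNA 1, against 9.61, 12.1 and 11.8 CPM in controls. It was 1.80-fold control with siRNA 2 (log2 fold change 0.85 ± 0.12, adjusted p = 0.000322) and did not pass with siRNA 1 (-0.10 ± 0.12, adjusted p = 0.642). Directly compared, siRNA 2 was above siRNA 1 for Mylk2 by 0.95 ± 0.12 (adjusted p = 0.000257) and for Myl6b by 0.41 ± 0.11 (adjusted p = 0.0145), the 2 calls in a comparison where 12.1% of genes passed higher and 14.3% lower. Myl6b was at 9.70, 8.52 and 8.74 CPM with siRNA 2, above 7.19, 6.22 and 6.34 CPM in controls (0.45 ± 0.11, adjusted p = 0.00597), and at 6.93, 7.69 and 5.74 CPM with siRNA 1, overlapping them (0.05 ± 0.11, adjusted p = 0.815).

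**Figure D5:**
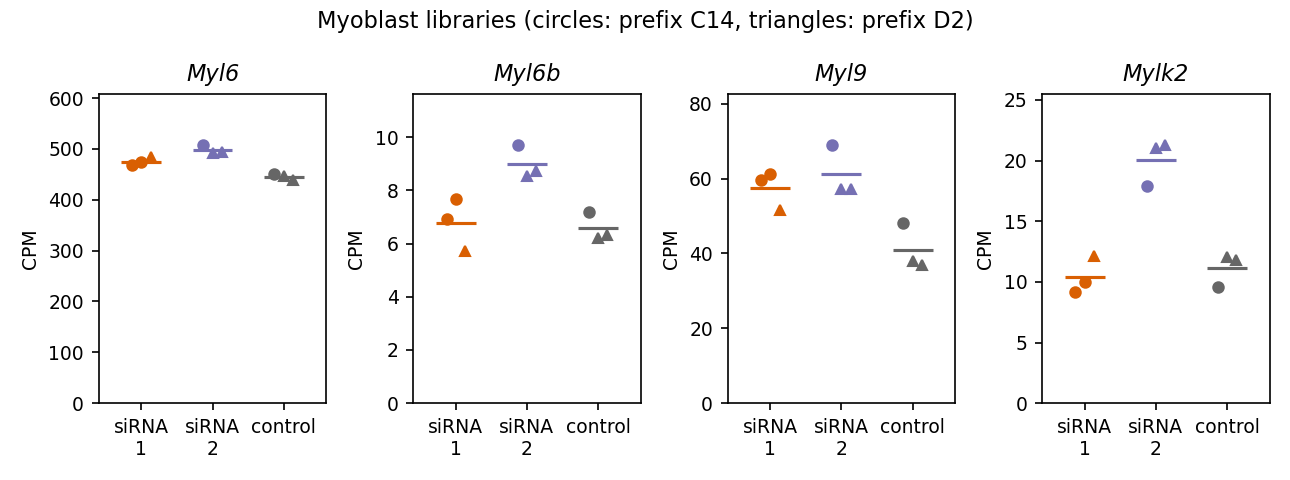
CPM of Myl6, Myl6b, Myl9 and Mylk2 in the 9 myoblast libraries, with siRNA 1, siRNA 2 and control from left to right; circles are prefix C14, triangles prefix D2 and bars group means. Mylk2 with siRNA 2 lies at 17.9 to 21.3, above the other libraries at 9.16 to 12.2.

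The sarcomeric chains in myoblasts differed between library prefixes. Mylpf was at 12.3 and 13.2 CPM in the C14 libraries of siRNA 1 and 4.62 CPM in its D2 library, and at 12.9 CPM in the C14 control and 5.35 and 5.38 CPM in the D2 controls. No call was made for Mylpf, Myl1 or Myl4 with either siRNA (siRNA 2 adjusted p = 0.312, 0.372 and 0.0546). Within prefixes, siRNA 2 stood above control by 0.66 in C14 and 1.05 in D2 for Mylpf, by 0.72 and 0.68 for Myl1 and by 0.71 and 0.78 for Myl4 (log2), and with the prefix in the model all 3 passed (adjusted p = 0.0122, 1.41e-07 and 0.00298). The siRNA 1 differences for Mylpf were -0.02 and -0.22. Summed skeletal myotube markers spread as widely, over 36.2 to 95.5 CPM with siRNA 1, 64.4 to 136 CPM with siRNA 2 and 32.1 to 94.5 CPM in controls, and their part was not tested.

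The depletion effect, as the mean of both siRNAs against control, was compared between the stages in 1 fit of all libraries. Of the 7 genes with enough counts in myoblasts, none had a higher effect called in myotubes and 2 had a lower one. Of all 16930 genes tested, 10.6% passed higher and 12.8% lower. Myl2 and Myl3 had at most 1 count in any myoblast library, so their difference could not be estimated (SE 997 and 802 on the log2 scale). The effect on Myl9 in myotubes minus that in myoblasts was -0.79 ± 0.14 on the log2 scale (adjusted p = 0.000698), and that on Myl6 was -0.14 ± 0.04 (adjusted p = 0.0159). Both genes rose in myoblasts with either siRNA, while in myotubes Myl9 fell with siRNA 2 and Myl6 did not pass. For Mylk2 the difference was 0.33 ± 0.13 (adjusted p = 0.0726), which did not pass here but did under several alternatives: with the library prefix in the model (0.28, adjusted p = 0.009), in DESeq2 (0.33, adjusted p = 0.0295), with the replicate block (0.33, adjusted p = 0.00583) and in 4 of the 18 fits without 1 library (0.36 to 0.43, adjusted p = 0.018 to 0.0467). Those 4 left out myoblast control replicate 1, myoblast siRNA 1 replicate 3, myotube control replicate 1 or myotube siRNA 1 replicate 1.

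Other light chains and kinases of the light chain family were read from a list of 7. In myotubes Myl12b, a non-muscle regulatory chain, rose with both siRNAs, by 0.66 and 0.40 (log2; adjusted p = 5.12e-06 and 3.52e-05), and 5 of the 7 could be tested, of which 1 was called higher with siRNA 1, and 2 higher and 2 lower with siRNA 2. Mylk3, the cardiac light chain kinase, rose by 1.06 with siRNA 2 (adjusted p = 5.8e-05), at 5.28 CPM with siRNA 1, 8.62 CPM with siRNA 2 and 4.11 CPM in controls. Mylk4, a further kinase gene of the list, was at 109 CPM with siRNA 1, 94.0 CPM with siRNA 2 and 117 CPM in control myotubes. By TPM it stood above Mylk2 in control myotubes, at 41.7 against 28.8 TPM, so the rise of Mylk2 does not describe all kinase messages. In myoblasts 3 of 4 tested rose with siRNA 1 and 4 of 4 with siRNA 2, where 11.6% and 17.1% of all genes passed higher, the shared ones being Myl12a, Myl12b and Mylk, the smooth muscle kinase gene. Myl12a and Myl12b are near-identical copies whose reads can be shared, so their split is uncertain.

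Of 15 genes that bear on light chain phosphorylation, among them subunits of myosin phosphatase, 2 passed higher and 1 lower with siRNA 1 in myotubes and 3 higher and 4 lower with siRNA 2, where 11.0% of all genes passed higher and 9.57% lower with siRNA 1 and 15.8% and 16.4% with siRNA 2. Those that rose with both were Dapk3, a kinase that acts on light chains and on the phosphatase (0.28 and 0.23), and Ppp1r12b, a targeting subunit of the phosphatase (0.17 and 0.26). Ppp1cb, a catalytic subunit of the phosphatase, did not pass with either. Calm3, a calmodulin gene, was at 188 CPM with siRNA 1, 130 CPM with siRNA 2 and 187 CPM in control myotubes, and its fall with siRNA 2 was -0.53 (adjusted p = 3.79e-06). In myoblasts 2 of 14 tested passed higher and 0 lower with siRNA 1, and 3 higher and 2 lower with siRNA 2, where 11.6% and 8.44% of all genes passed with siRNA 1 and 17.1% and 16.5% with siRNA 2.

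Of the 9 heavy chain partners, Myh8, the perinatal chain, rose in myotubes with both siRNAs (0.54 and 0.23; adjusted p = 0.000246 and 0.018). Myh4, the fast IIb chain, fell with both (-0.97 and -1.001; adjusted p = 9.57e-05 and 2.78e-05), as did the non-muscle chain Myh10 (-0.25 and -0.77). Myh4 was at 268 CPM with siRNA 1, 263 CPM with siRNA 2 and 526 CPM in control myotubes, whereas the fast regulatory chain Mylpf did not pass. Summed TPM of the 9 in myotubes was 4465 ± 67.3 with siRNA 1, 4294 ± 336 with siRNA 2 and 4269 ± 203 in controls. In myoblasts 7 could be tested. None passed with siRNA 1, and 0 passed higher and 2 lower with siRNA 2, where 17.1% and 16.5% of all genes passed. Non-muscle Myh9 and Myh10 were at 1752 and 227 CPM with siRNA 2, against 2458 and 362 CPM in control myoblasts. With siRNA 1 they were at 2676 and 371 CPM. Summed TPM of the 9 in myoblasts was 763 ± 16.0 with siRNA 1, 515 ± 29.1 with siRNA 2 and 740 ± 8.61 in controls.

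The genes whose pattern over the 18 libraries was most like that of a light chain gene were named by the smallest root mean square difference of centred log2 CPM among 16929 genes. Mybph (0.159), Acta1 (0.166) and Hrc (0.19) came nearest to Mylpf. Myh2 (0.254), Myh1 (0.256) and Dhrs7c (0.363) came nearest to Myl4. For Mylk2 they were Gm17552 (0.239), Carns1 (0.245) and Serpinb6b (0.256), and for Myl9 they were Tab3 (0.156), Reck (0.182) and Nme4 (0.182). The measure includes the difference between the stages.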

How the data were processed

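PolyA RNA libraries of 18 samples in 6 groups of 3 were analysed from 2 deposited tables, 1 per stage. Per the file headers, the authors deposited estimated counts per transcript, not scaled between libraries, and TPM, scaled within each library. The sources used here do not give the quantifier; mm10 and DESeq2 appear, with no role, per the submitters' processing notes. Of 115088 transcripts, 114200 matched GENCODE M21 by identifier; the 888 unmatched held 0.16% to 0.24% of counts and were dropped. Gene sums were rounded and tested with edgeR 4.0.16 in R 4.3.3: filterByExpr (minimum count 10), TMM, robust quasi-likelihood fits and Benjamini-Hochberg adjustment over all genes tested, with calls at 0.05. Each stage was fitted with its 9 libraries (6 residual degrees of freedom); comparisons across stages used all 18 (12). Printed CPM come from the fit of all 18. All adjusted p values come from edgeR unless limma 3.58.1 or DESeq2 1.42.0 is named. SE were derived from the F statistic. TPM was summed per gene for levels, and as log2(TPM + 0.1) or log2(TPM + 1) in limma with a trend. Myl1 transcripts were grouped by start site. The fits were tested on simulated counts.

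The genes and the lists around them were chosen with earlier results of these data known. All 9 genes are named throughout. Calm3, Ppp1cb, Mylk4, Myh9, Myh10 in myoblasts and the marker genes were named after their values were seen. Otherwise genes from the lists are named if called in the same direction with both siRNAs of a stage or past a log2 change of 1. A gene that meets this rule is not reported here. Library names in the labels assigned the columns; that of siRNA 2 myoblast replicate 3 reads SETD3 where its label reads SETD2, and the name of myotube control replicate 3 differs from other controls. Alternatives were RLE scaling, no filter on low counts, DESeq2, limma on TPM, the replicate block, the library prefix and leaving out each library. Intervals on isoform assignment are not given, and depth and spread cover counting and library error only.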

Additional observations from a re-analysis of the deposited data

Results flagged for a closer look

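The effect of Setd2 depletion differed between the stages for Myl9 and Myl6 by a test of the difference itself. For Myl9 the log2 effect in myotubes minus that in myoblasts was -0.79, with the gene at 41.6, 30.5 and 42.6 CPM in myotubes with siRNA 1, siRNA 2 and control and at 57.5, 61.1 and 41.0 CPM in the same groups of myoblasts. For Myl6 the difference was -0.14, and it did not pass without myoblast control replicate 3 (-0.13, adjusted p = 0.0527 by edgeR). Since no library prefix occurs in both stages, stage and prefix cannot be told apart in either value.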

How the results depend on the processing

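Of 1118 gene-level values recomputed under an alternative, 1027 kept their direction and their side of the threshold, 34 newly passed, 36 no longer passed and 21 changed sign, all of the last being changes that had not passed. The number of genes called for the difference of the effect between stages, 2, was 4 with the library prefix in the model and 1 to 4 with a library left out. For siRNA 1 in myoblasts it was 1, where 2 are reported, without a filter on low counts and in limma on log2(TPM + 0.1) and on log2(TPM + 1), and 0 to 2 with a library left out. With the prefix in the model it was 7, where 4 are reported, for siRNA 2 in myoblasts, and 6, where 2 are reported, for siRNA 2 over siRNA 1 in myoblasts. The cause was not tested. The replicate block gave 8 calls between control stages, 3 for the difference between stages, 5 and 6 for siRNA 1 and siRNA 2 in myotubes, 5 between siRNAs there, and 2, 5 and 2 for siRNA 1, siRNA 2 and their comparison in myoblasts. Under it Mylk2 newly passed for the difference between stages (0.33, adjusted p = 0.00583 by edgeR) and Myl4 for siRNA 2 in myoblasts (0.75, adjusted p = 0.0314), and Myl1 was lost between siRNAs in myotubes (adjusted p = 0.0535). Same-numbered libraries correlated at -0.151 to 0.303 in myoblasts (median 0.134) and -0.101 to 0.142 in myotubes (median 0.066). Differently numbered libraries correlated at -0.374 to 0.242 in myoblasts (median -0.088) and -0.2 to 0.137 in myotubes (median -0.038). The median was higher for same-numbered libraries in both stages, and the ranges overlapped. The main fits did not pair the samples by number, and whether the numbers mark pairs was not tested.

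The difference in the Myl1 downstream share in myotubes was 9.84 points for siRNA 1 within prefix C13 and 10.3 points for siRNA 2 in shares of TPM, and with a library left out 11.5 to 13.7 points for siRNA 1 and 11.9 to 12.9 for siRNA 2. Between siRNAs it was -0.11 in shares of TPM and -1.22 to 0.97 with a library left out.

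Signs changed for siRNA 1 in myoblasts for Myl6b with the prefix (-0.034) and in limma (-0.032 and -0.029 with the smaller and larger pseudocount) and for Mylpf with the prefix (-0.024). In myotubes they changed in limma for Myl6 with siRNA 1 (-0.0077), Mylpf with siRNA 2 (-0.0057) and Mylpf between siRNAs (-0.028). With a library left out, the range crossed 0 for Myl9 between control stages (-0.016 to 0.19), the Myl6b difference between stages (-0.014 to 0.10), Myl6b with siRNA 1 in myoblasts (-0.052 to 0.16), Myl1 and Myl9 between siRNAs in myoblasts (-0.36 to 0.36 and -0.0026 to 0.14), Myl9 with siRNA 1 in myotubes (-0.080 to 0.045) and Mylpf between siRNAs in myotubes (-0.0225 to 0.069). The Myl3 values rest on 14 to 49 counts per myotube library.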
